A study of Mus musculus with 3 samples.

Results

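TM7 is a cluster of stromal cells of the mouse iridocorneal angle and limbus that carries *Rgs5*, *Chil1* and *Angpt1*. It is one of 11 groups, TM1 to TM11, of the cells around the trabecular meshwork (TM). Its members are the cells that carry this label in the deposited tables, matched by barcode to the count matrices. They number 1580 of 26008 kept cells. Of these, 667 came from control replicate 1, 739 from control replicate 2 and 174 from the *Angpt1*ΔNC library. The groups set beside it were TM6 with 253 cells, TM8 with 1358 and TM9 with 829, the related stromal groups, called the other uveal groups below.

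The series compared neural crest-specific *Angpt1* knockout mice, *Angpt1* flox/flox;Wnt1Cre+ (*Angpt1*ΔNC), with *Angpt1* flox/flox controls, all 6 weeks old. Controls therefore carried the floxed alleles too, and both genotypes had been crossed for 2 generations to ICR mice to obtain albino animals of mixed strain. Each library pooled 4 to 6 eyes of 2 to 3 mice, and *Angpt1*ΔNC is represented by a single pool. Wnt1-Cre acts in the whole neural crest lineage, so the deletion is not particular to TM7. Genotype, pool and library cannot be told apart for the knockout.

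The uveal stroma is the loose connective tissue of the iris, ciliary body and choroid, and in mice it derives from the neural crest. RGS5, a regulator of G protein signaling, is best known from pericytes, while *Chil1* encodes a secreted chitinase-like glycoprotein that the trabecular meshwork produces in quantity. ANGPT1 is a secreted ligand of the endothelial receptor TEK, made by perivascular and stromal cells and required for the formation of Schlemm's canal, the vessel that drains aqueous humor.

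Several of the genes that changed in TM7 belong to programs with known promoter elements, so their promoters are shown from 250 bases before to 50 bases after the start (RefSeq, GRCm38.p6). The first 4 belong to interferon-stimulated genes that rose in *Angpt1*ΔNC TM7 and whose difference also exceeded that in TM6, TM8 and TM9. Capitals mark the core of the interferon-stimulated response element, that is GAAA, any 2 bases and GAAA again, on either strand, and matches in *Bst2* and *Gbp3* overlap. Of several starts of a gene the farthest upstream was taken.
Ifit3 (chr19:34583279-34583578, plus strand): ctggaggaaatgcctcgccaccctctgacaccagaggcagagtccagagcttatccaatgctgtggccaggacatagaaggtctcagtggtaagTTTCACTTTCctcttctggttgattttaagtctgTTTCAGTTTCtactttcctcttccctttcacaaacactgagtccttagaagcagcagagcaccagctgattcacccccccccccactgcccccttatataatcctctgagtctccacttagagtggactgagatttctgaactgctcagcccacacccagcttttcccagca
Rsad2 (chr12:26456403-26456702, minus strand): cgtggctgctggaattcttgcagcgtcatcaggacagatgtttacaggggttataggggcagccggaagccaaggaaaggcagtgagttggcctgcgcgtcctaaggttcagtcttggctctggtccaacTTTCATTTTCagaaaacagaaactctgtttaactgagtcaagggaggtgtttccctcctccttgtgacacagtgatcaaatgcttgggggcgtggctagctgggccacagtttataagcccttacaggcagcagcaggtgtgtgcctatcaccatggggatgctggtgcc
Bst2 (chr8:71537423-71537722, minus strand): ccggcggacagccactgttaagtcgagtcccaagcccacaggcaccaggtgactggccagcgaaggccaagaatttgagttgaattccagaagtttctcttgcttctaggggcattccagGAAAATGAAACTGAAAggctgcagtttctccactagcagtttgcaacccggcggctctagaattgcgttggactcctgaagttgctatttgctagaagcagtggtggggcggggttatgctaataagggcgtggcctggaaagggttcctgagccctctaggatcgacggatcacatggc
Gbp3 (chr3:142559794-142560093, plus strand): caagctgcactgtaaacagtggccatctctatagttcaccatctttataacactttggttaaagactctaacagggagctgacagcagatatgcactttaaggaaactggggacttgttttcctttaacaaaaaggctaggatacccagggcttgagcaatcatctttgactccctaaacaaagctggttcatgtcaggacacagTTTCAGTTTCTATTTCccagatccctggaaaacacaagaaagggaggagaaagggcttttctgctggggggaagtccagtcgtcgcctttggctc

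Of the 8 interferon-stimulated genes that rose, 7 had a promoter entry and 5 of these held the core, against 3.44% of all 32851 promoter entries of the same length. The list is of a program known for this element, and its members that did not rise were not counted, so nothing about TM7 is read from the excess. The 3 further promoters belong to genes that fell in TM7, and fell more there than in the other uveal groups. In *Socs3*, the inhibitor of cytokine receptor signaling, capitals mark the STAT site TTCNNNGAA, which 8.30% of all entries hold. In *Dusp1*, a phosphatase of MAP kinases, and in *Has1*, a hyaluronan synthase, they mark the cyclic AMP response element TGACGTCA, present in 1.79% of all entries. Both elements read the same on either strand.
Socs3 (chr11:117969317-117969616, minus strand): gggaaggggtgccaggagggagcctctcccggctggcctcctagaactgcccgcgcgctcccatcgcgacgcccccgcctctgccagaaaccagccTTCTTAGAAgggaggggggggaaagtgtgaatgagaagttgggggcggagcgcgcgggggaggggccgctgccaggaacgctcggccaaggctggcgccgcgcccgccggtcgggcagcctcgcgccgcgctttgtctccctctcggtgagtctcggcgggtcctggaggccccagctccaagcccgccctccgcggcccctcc
Dusp1 (chr17:26508423-26508722, minus strand): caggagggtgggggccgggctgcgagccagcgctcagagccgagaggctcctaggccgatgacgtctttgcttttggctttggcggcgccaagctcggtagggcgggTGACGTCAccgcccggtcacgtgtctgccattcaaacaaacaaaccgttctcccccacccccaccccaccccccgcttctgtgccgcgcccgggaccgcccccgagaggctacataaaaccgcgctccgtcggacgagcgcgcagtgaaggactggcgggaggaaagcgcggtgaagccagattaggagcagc
Has1 (chr17:17855139-17855438, minus strand): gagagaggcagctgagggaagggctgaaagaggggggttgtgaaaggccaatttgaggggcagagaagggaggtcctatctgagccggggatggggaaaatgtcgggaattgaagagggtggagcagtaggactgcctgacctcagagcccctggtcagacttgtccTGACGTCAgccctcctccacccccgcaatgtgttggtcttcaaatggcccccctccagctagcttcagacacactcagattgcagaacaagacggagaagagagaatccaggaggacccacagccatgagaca

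Among the 7 immediate early genes that fell, all had an entry, 1 held the STAT site and 1 the cyclic AMP response element. These matches describe the letters only.

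The depth of TM7 was alike in the 3 libraries, with a median of 5718, 6201 and 6723 UMIs per cell (control replicate 1, control replicate 2 and *Angpt1*ΔNC, the order used throughout), 1969 to 2137 genes per cell and 3.89 to 4.69% mitochondrial UMIs. Unique molecular identifiers (UMIs) count transcripts. Summed over cells, TM7 held 3915038, 4696675 and 1281301 UMIs. Libraries shared 13 to 25 kept barcodes in pairs, none of them within TM7. Pools are described as mixed in sex, but none of the 667 and 739 control TM7 cells had an *Xist* UMI, whereas 125 of the 174 *Angpt1*ΔNC cells were typed as female (*Xist* and no Y-linked UMI) and 32 as male. Sex is thus confounded with genotype. Values in male-typed cells alone (463, 547 and 32 cells) are given beside many, not all, of the results whose call or size they changed. Calls lost with DESeq2 or with equal numbers of cells (174 per library) are given too. Genes to which DESeq2 gave no adjusted p are not counted as lost.

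*Rgs5* (chr1:169655501-169695813 in GRCm38) averaged 11.5, 9.27 and 3.32 UMIs per 10,000 in TM7 cells. In TM6, TM8 and TM9 it reached at most 1.29 in any library, so TM7 was the highest of the 4 in each. Among all 11 groups only TM4 came near in the controls, at 8.54 and 5.72, and TM4 stood at 0.236 in *Angpt1*ΔNC. Pericytes (cluster 20) had far more, from 75.1 to 92.3.

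*Chil1* (chr1:134182176-134190181) stood at 20.6, 28.8 and 6.26 UMIs per 10,000 in TM7 and at no more than 3.18 in TM6, TM8 or TM9. TM4 was above TM7 in every library, at 51.3, 56.0 and 27.9, and TM5 lay close to TM7. *Chil1* therefore set TM7 apart from the uveal groups but not from the trabecular meshwork groups. Both genes define the cluster, so these levels are a description without a test. They were also lower in *Angpt1*ΔNC TM7 than in both controls.

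**Figure D1:**
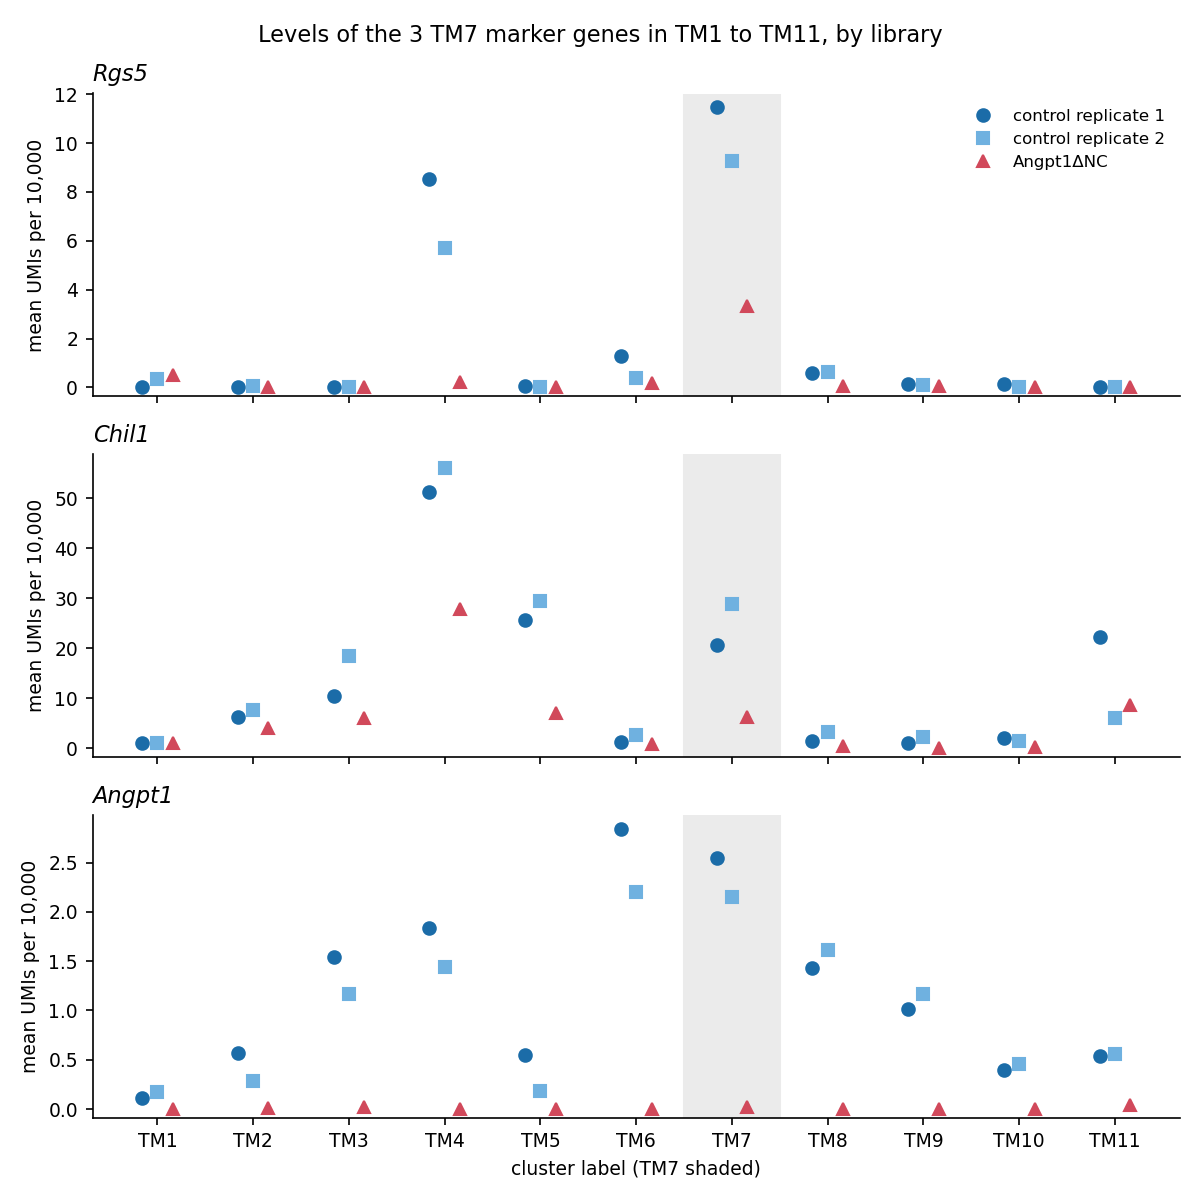
Mean level of *Rgs5*, *Chil1* and *Angpt1* (UMIs per 10,000, vertical axes) in TM1 to TM11, with 1 point per library. TM7 (shaded) had the highest *Rgs5* level in every library, shared high *Chil1* with TM3 to TM5 and TM11, and held *Angpt1* at 2.55 and 2.16 in the controls against 0.0225 in *Angpt1*ΔNC.

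An *Rgs5* UMI was found in 77.2%, 70.6% and 39.7% of TM7 cells, and a *Chil1* UMI in 59.8%, 64.1% and 36.8%. In the limbal and corneal epithelium, which should express neither, the shares were 0.878 to 3.56% and 2.96 to 6.72% at median depths of 15135 to 17717 UMIs. After thinning each cell to 2000 UMIs (641, 724 and 172 cells), *Rgs5* was found in 63.3%, 55.0% and 26.7% of TM7 cells. TM7 was mixed in this respect. Among thinned *Rgs5*-positive cells of the controls 55.4% and 64.3% had a *Chil1* UMI, against 34.0% and 41.4% of the *Rgs5*-negative cells, and in *Angpt1*ΔNC the shares were 26.1% and 18.3%. *Angpt1* did not follow the split in the same way, with 30.0% and 34.9% of *Rgs5*-positive and 31.1% and 28.5% of *Rgs5*-negative control cells. These shares share their cells and depth and are given without a test.

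The genes highest in TM7 relative to the other uveal groups were *Myoc*, *Chil1* and *Rgs5*, followed by *Tnmd*, *Pi16* and *Crabp2*. Of 2488 genes found in at least 25% of control TM7 cells, 38 lay at least 2-fold above the highest of TM6, TM8 and TM9 in both controls, and 11 at least 3-fold. The largest ratio, 20.6-fold in the lower control, belonged to *Myoc*, the secreted myocilin of the trabecular meshwork and a glaucoma gene. Its TM7 level was 8.0, 10.5 and 3.18 UMIs per 10,000, below TM4 (62.8, 59.4 and 23.2) and TM2 (21.7, 33.0 and 19.8) in every library. Only 34.2%, 37.9% and 21.8% of TM7 cells had a UMI of it. Next came *Tnmd*, the tendon glycoprotein tenomodulin, 5.63-fold, and *Pi16* and *Crabp2*, the latter a carrier of retinoic acid to its receptor, 4.5-fold and 4.32-fold.

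Several of the 20 encode matrix proteins. *Vit* was 4.16-fold above, *Fmod*, a collagen-binding proteoglycan, 3.49-fold, and *Mfap5*, a microfibril protein, 2.83-fold. *Igfbp6*, a binding protein with preference for IGF2, was 3.96-fold above, and *S100a6*, a calcium-binding protein, had the highest level of the 20 leading genes, at 33.1, 35.2 and 25.0 UMIs per 10,000. *Cd34*, an adventitial fibroblast marker, was 2.82-fold above, at 1.52, 1.04 and 0.304, but TM10 held far more, at 9.05, 7.96 and 8.42. The remaining genes of the 20 were *Slit3*, *Ptgis*, *Cdo1*, *Boc*, *1500015O10Rik*, *Itgbl1*, *Timp1* and *Wwp2*, 2.53- to 3.1-fold above.

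Fewer genes marked TM7 by their low level. Of 1376 genes found in at least 25% of the cells of TM6, TM8 and TM9, 7 lay at least 2-fold below the lowest of the 3 in both controls. *Des*, the muscle filament desmin, was at 0.107, 0.0800 and 0.106 UMIs per 10,000 in TM7 and at 0.942 to 1.42 in the other control groups. *Cxcl12*, a chemokine that attracts CXCR4-bearing cells, was at 3.12 and 3.39 in control TM7, against 8.60 to 20.3 elsewhere. The others of the 7 were *Lamc3*, *Gadd45a*, *Nr2f1*, *Sparcl1* and *Fam46a*, and the next genes, *Cpxm1*, *Col10a1* and *Ptn*, lay just short of 2-fold.

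The same genes were then read in the knockout. Of the 20 leading genes 17 were lower in *Angpt1*ΔNC TM7 than in both controls and 2 higher. They were chosen for high control levels, and 42.2% of all genes tested between genotypes lay below both controls in CPM, so nothing is read from this count. Knockout cells got their labels in the same clustering, so the order between groups in that library is partly built in. Of the 20 genes, 18 lay above TM6, TM8 and TM9 of the knockout library, 13 of them at least 2-fold. The exceptions were *Cdo1* and *Timp1*, with ratios of 0.987 and 0.933. Of the 10 low genes, 5 were higher in *Angpt1*ΔNC TM7 than in both controls, and 7 remained below the other groups.

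**Figure D2:**
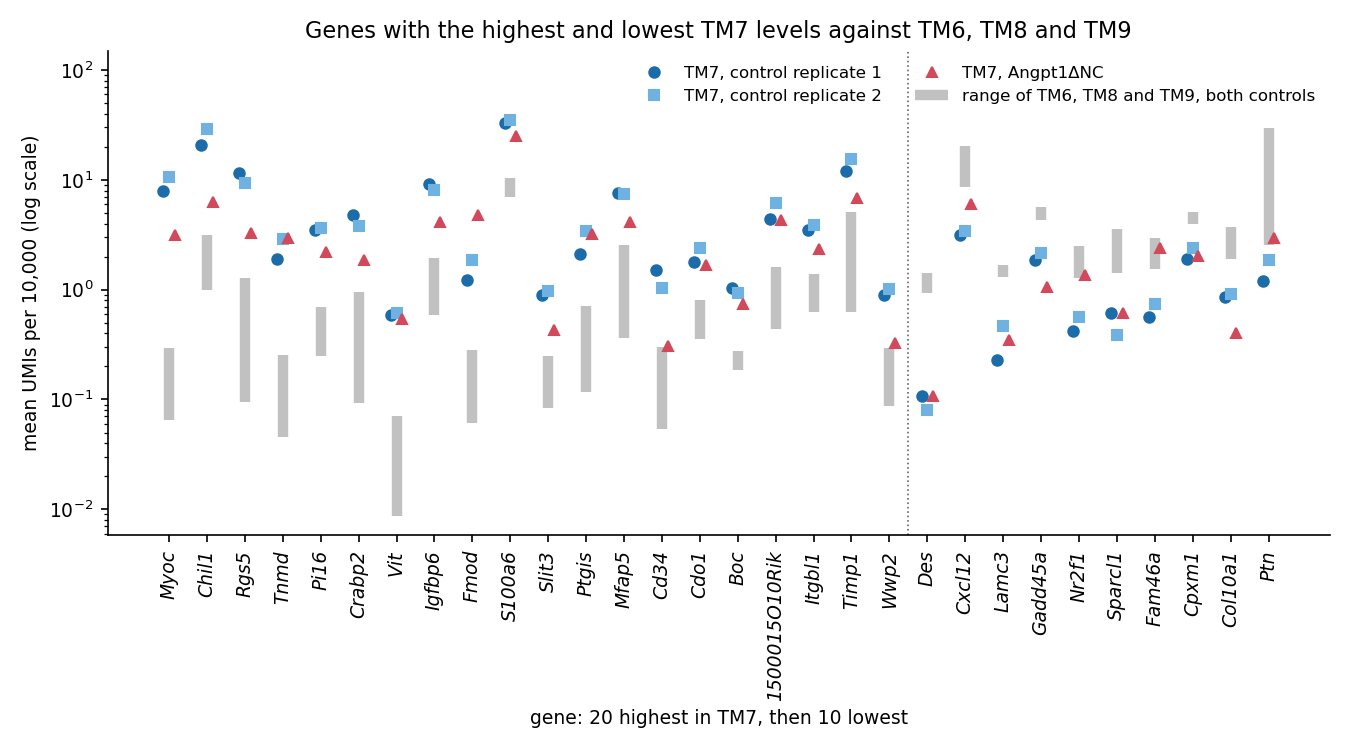
Level in TM7 (UMIs per 10,000, log scale) of the 20 genes with the highest and the 10 with the lowest TM7 level against TM6, TM8 and TM9, with 1 point per library. Grey bars span TM6, TM8 and TM9 of both controls, and the *Angpt1*ΔNC point lies under both control points for 17 of the 20 high genes.

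Marker lists of cell types were read in the same way. *Rgs5* and *Chil1*, which mark the cluster, are not counted, and the counts describe the cells that were clustered. Of 7 trabecular meshwork markers, 5 were found in at least 10% of control TM7 cells and 4 (*Myoc*, *Chad*, *Fmo2* and *Svep1*) were highest in TM7 among the 4 uveal groups of both controls, where 21.1% of all 4927 genes so detected were. Outside these groups *Svep1* stood at 1.11 to 1.58 in control TM4 and TM5, against 0.342 and 0.413 in control TM7. Of the 8 adventitial fibroblast markers 5 were detected, and 4 of them (*Cd34*, *Pi16*, *Mfap5* and *Ly6a*) were highest in TM7. The pericyte list, of which 4 of 11 were detected, went both ways, with *Cspg4* highest in TM7 and *Ndufa4l2*, *Cox4i2* and *Pdgfrb* lowest. *Higd1b* had no UMI in TM7 of any library, and *Kcnj8*, a potassium channel subunit of mural cells, was at 0.362, 0.490 and 0.0959 UMIs per 10,000 against 7.23 to 11.6 in pericytes. Summed levels of the immune list were 0.50 to 0.83 and of the endothelial list 0.96 to 1.71. No list fixed for this work defines the uveal stroma itself, so the name could not be checked against one. The authors integrated the libraries on the 5000 most variable genes, and left out *Angpt1*, 7 sex-linked or similar transcripts and genes found in a single sample.

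*Angpt1* (chr15:42424723-42676977) was left out of the clustering by the authors, so that its level can be compared between groups. In control TM7 it stood at 2.55 and 2.16 UMIs per 10,000, beside 2.84 and 2.20 in TM6, 1.43 and 1.61 in TM8 and 1.01 and 1.17 in TM9. TM7 and TM6 were the highest of the 11 groups in both controls, and the order between them did not exceed the error. Against the mean of TM6, TM8 and TM9, TM7 was higher by 0.53 ± 0.10 on the log2 scale (SE, 2 control libraries, edgeR with library as block, adjusted p = 0.000265), in a comparison in which 32.3% of all genes passed. Taken singly, TM7 exceeded TM8 by 0.65 (adjusted p = 0.000188) and TM9 by 1.06 (adjusted p = 5.59e-06), while the difference from TM6 was -0.12 ± 0.14 (SE, adjusted p = 0.579).

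In *Angpt1*ΔNC TM7 almost no *Angpt1* was left. Its UMIs numbered 998, 1022 and 5 in TM7, and 59.7%, 62.0% and 2.30% of the cells had one. Controls and knockout did not overlap. The log2 difference was -5.89 ± 0.33 (SE, edgeR, adjusted p = 8.04e-05). *Angpt1* UMIs numbered 0, 0 and 1 in TM6, TM8 and TM9 of *Angpt1*ΔNC with 244103, 829925 and 2107866 UMIs in all, against the 5 in TM7 with 1281301.

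TM7 took a smaller share of the *Angpt1*ΔNC cells. It made up 7.35% (exact 95% interval 6.82 to 7.91), 7.27% (6.78 to 7.80) and 2.57% (2.21 to 2.97) of all kept cells, so the *Angpt1*ΔNC share was 35.1% of the control mean. Within TM1 to TM11 the shares were 23.8%, 22.2% and 8.94%, and within TM6 to TM9 42.4%, 42.5% and 24.6%, the latter 58.1% of the control mean. TM8 moved alike, from 6.51% and 6.02% to 2.29% of kept cells, and TM9 the other way, from 2.25% and 2.93% to 4.83%. Both controls lay close together and apart from *Angpt1*ΔNC, but the shares were not tested between genotypes, and the intervals cover counting error only. The paper could not exclude differences in dissection for its lower uveal numbers, and their part was not tested here. Limbal and corneal epithelium made up 989 of 9076, 1012 of 10160 and 911 of 6772 kept cells.

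**Figure D3:**
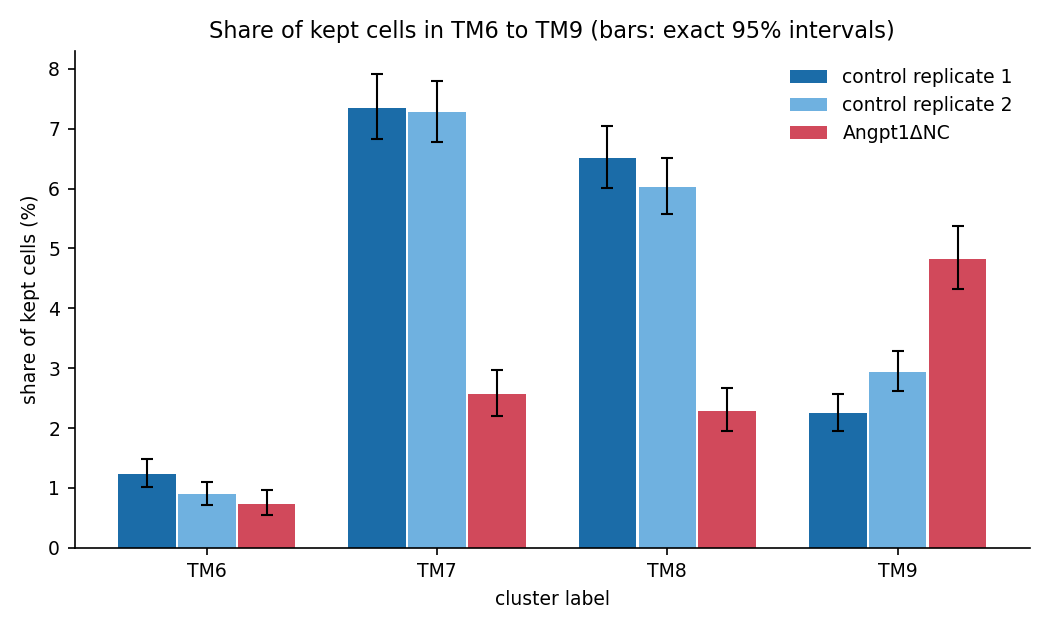
Share of all kept cells (percent) with the label TM6, TM7, TM8 or TM9, by library, with exact 95% binomial intervals. TM7 stood at 7.35% and 7.27% in the controls and at 2.57% in *Angpt1*ΔNC, TM8 was lower there too and TM9 higher, at 4.83%.

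To ask which genes of TM7 differed between genotypes, UMIs were summed over the TM7 cells of each library and 10758 genes were tested with edgeR. At an adjusted p under 0.05, 545 genes or 5.07% were called, 272 higher in *Angpt1*ΔNC (2.53%) and 273 lower (2.54%), of which 200 and 196 changed at least 2-fold. With 1 residual degree of freedom the single knockout pool is taken to vary like the controls, and the p-values rest on the spread between the 2 control pools. Of all tested genes 41.3% lay above both controls and 42.2% below, so a knockout value outside both controls is common in this design. These shares, and the 2.53% and 2.54% called, are to be set beside every list count and single gene below. With DESeq2 229 genes were called, 89 higher and 140 lower. Male-typed cells alone gave 509, 204 higher and 305 lower around a median of -0.12 over all genes, and 290 of the 545 calls were shared in direction. The sex-linked genes stood apart, since *Xist* had 0, 0 and 1358 UMIs, at least 3042-fold higher in *Angpt1*ΔNC against a floor of 3 UMIs. *Ddx3y*, a Y-linked helicase gene, fell from 165 and 192 to 51.1 CPM (UMIs scaled by the library size of the TM7 sums), and in male-typed cells its log2 difference was 0.05.

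The genes with the smallest adjusted p among those that rose are given first. *Col23a1*, a transmembrane collagen, was at 12.8, 15.8 and 137 CPM, and *Comp*, a cartilage matrix protein, at 37.5, 31.4 and 223 CPM. Neither control came near the knockout, with log2 differences of 3.25 ± 0.20 (adjusted p = 0.000112) and 2.69 ± 0.18 (adjusted p = 0.00016, SE, edgeR). *Ccl5*, a chemokine for leukocytes, had 4, 1 and 84 UMIs, and *Sct*, the hormone secretin, 11, 12 and 55. DESeq2 gave no adjusted p for either. *Sct* was the 1 of these 4 whose difference exceeded that in TM6, TM8 and TM9 (by 6.89 ± 0.96 on the log2 scale, adjusted p = 9.55e-05).

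Most of the further genes named by the same rule have closely related copies, among which reads may be divided, but this was not tested. *Mndal* of the Ifi200 family rose from 5.28 and 5.20 to 116 CPM, *Gbp2b*, a guanylate-binding protein, from 10.3 and 7.37 to 144, and *Il11ra1*, an interleukin-11 receptor chain, from 41.0 and 47.7 to 409. The log2 rise of *Il11ra1* was 3.20 in all cells and 2.28 in male-typed cells. *Gm13305*, a predicted gene related to *Il11ra1*, fell from 398 and 421 to 57.4 CPM, by 2.83 on the log2 scale in all cells and by 1.18 in male-typed cells. The complement protease copies *C1s2* and *C1rb* had 385, 338 and 2 UMIs and 218, 364 and 1 UMI, the *Angpt1*ΔNC level being 1.86% (exact 95% interval 0.225 to 6.74) and 1.15% (0.0292 to 6.46) of the control level. *BC023719* had 300, 330 and 2 UMIs. *Gm10260*, a predicted gene, had 968, 1510 and 0, which is at least 123-fold lower against a floor of 3 UMIs. Of these 8 genes *Gm13305* alone passed the test of a difference from TM6, TM8 and TM9 (-0.83 ± 0.22, adjusted p = 0.0411), so for the others a TM7 pattern is not shown.

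Other genes fell as well. *Procr*, the endothelial protein C receptor, was at 2435, 2508 and 811 CPM, with a log2 difference of -1.61 ± 0.16 (SE, adjusted p = 0.00171). Both controls were about alike and the knockout lay far below, and in male-typed cells the difference was -3.08. *Gpc3*, a glypican that binds Hedgehog and Wnt ligands, fell from 1381 and 1513 to 484 CPM, *Akap12*, a kinase scaffold, from 731 and 700 to 229, and *Selp*, the adhesion receptor P-selectin, from 109 and 105 to 20.4. None of these 4 passed the test of a difference from TM6, TM8 and TM9, in which their adjusted p ran from 0.0555 to 0.927.

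Interferon-stimulated genes, which cells switch on in response to interferons, were called in 1 direction. Of 31 tested, 8 rose and none fell, and 19 lay above both controls (41.3% of all genes did) and 7 below (42.2%), with a median log2 difference of 0.45 against -0.01 over all genes. *Ifit3*, which restrains viral RNA, stood at 211, 200 and 962 CPM, a difference of 2.23 ± 0.15 (SE, adjusted p = 0.00016). *Rsad2*, the antiviral enzyme viperin, was at 71.4, 46.6 and 262 CPM and *Ifi44* at 9.30, 7.59 and 55.8. For each of the 3 the knockout lay well above both controls. *Gbp3* rose by 1.72, *Usp18* by 1.13, *Bst2*, the tetherin that holds budding virus, by 1.01, *Ifit1* by 0.86 and *Xaf1* by 0.84. The rise was uneven, since *Gbp2*, another guanylate-binding protein, was at 663, 675 and 431 CPM (adjusted p = 0.056). In male-typed cells 5 of 31 rose (*Ifit3*, *Rsad2*, *Bst2*, *Gbp3* and *Ifi44*) and 2 fell (*Gbp2* and *Ifitm1*). *Ifit3* rose by 1.61 there. *Usp18* and *Xaf1* passed neither with DESeq2 (adjusted p = 0.0975 and 0.0926) nor with equal numbers of cells (0.168 and 0.0711). The immune marker list, summed, was at 0.83, 0.50 and 0.64 UMIs per 10,000, and its part was not tested.

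Immediate early genes, which cells induce within minutes of a stimulus and also during dissociation, went down. Of 18 tested, 7 fell (2.54% of all genes did) and none rose. Below both controls lay 16 (42.2% of all genes did), and the median was -0.61. *Socs3* was at 690, 537 and 114 CPM (difference -2.43 ± 0.22, SE, adjusted p = 0.0012), *Junb* at 1984, 1971 and 705 and *Fosb* at 1221, 1373 and 507. For *Socs3* and these AP-1 subunits the knockout lay below both controls, as it did for 42.2% of all genes. *Dusp1* fell by 1.05, *Fos* by 1.20, *Klf4*, a Krüppel-like factor, by 0.96 and *Ier3* by 0.87. *Fos* did not pass with equal numbers of cells (adjusted p = 0.0652). In male-typed cells 8 of 18 fell and *Klf4* did not pass (-0.24, adjusted p = 0.562). Of 9 heat shock genes 2 fell, *Dnajb1* by 1.34 and *Hspa1a* by 0.96, and 4 lay above and 5 below both controls. *Hspa1a* did not pass with DESeq2 (adjusted p = 0.0526), with equal numbers of cells (0.0612) or in male-typed cells (-0.29, 0.628).

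**Figure D4:**
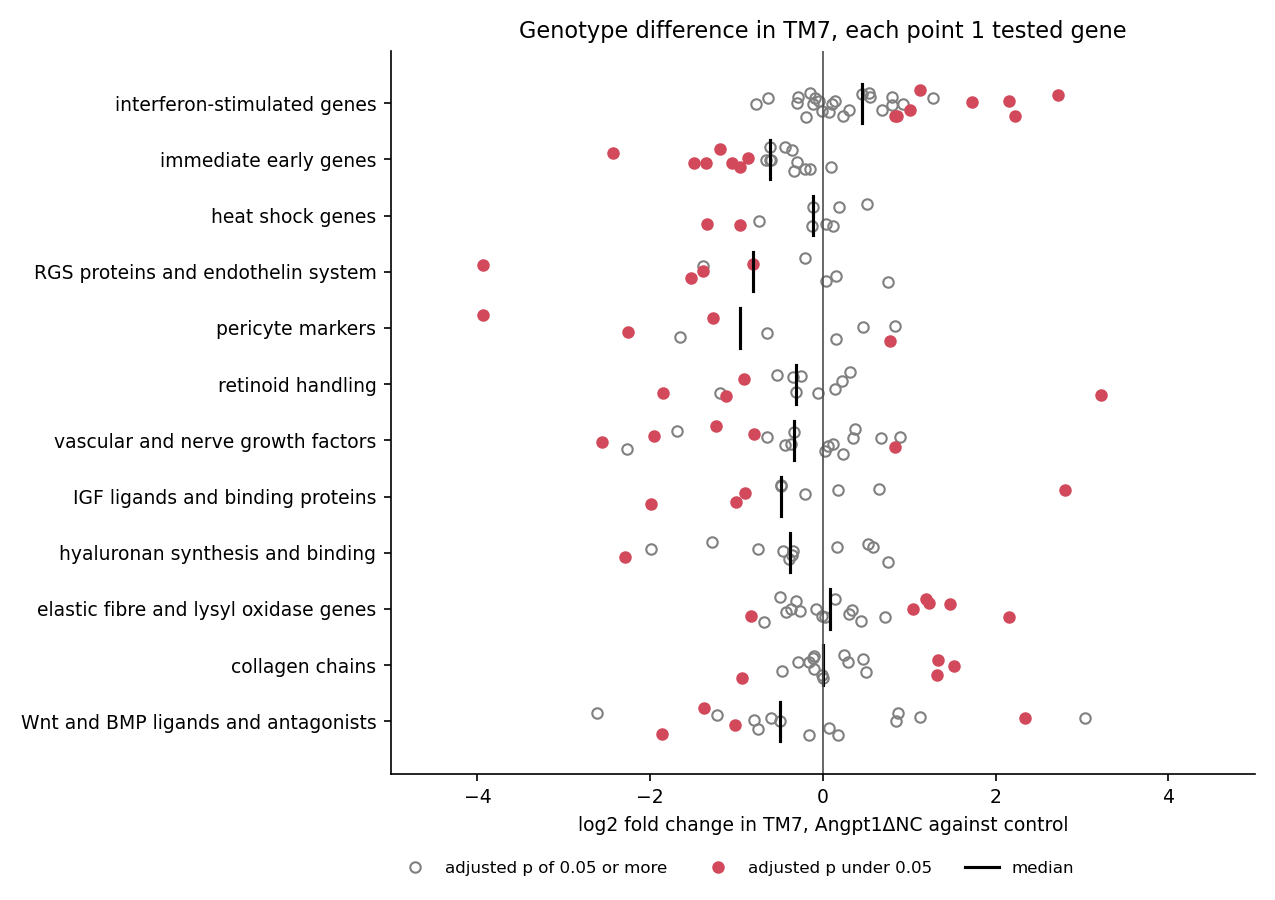
Log2 fold change in TM7, *Angpt1*ΔNC against control, of each tested gene of 12 lists (1 point per gene, filled where the adjusted p was under 0.05, line at the list's median). Interferon-stimulated genes lie to the right, with 8 of 31 called, and immediate early genes to the left, with 7 of 18 called. *Vtn* lies outside the axis, and *Rgs5*, *Chil1* and *Angpt1* are left out.

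Of 9 genes of G protein signaling and the endothelin system tested beside *Rgs5*, 4 fell and none rose. Below both controls lay 5 and above them 2, and the list's median was -0.81. *Edn3*, the ligand of the endothelin B receptor that guides neural crest melanoblasts, was at 837, 708 and 269 CPM, so the knockout was under both controls (-1.52 ± 0.18, SE, adjusted p = 0.00356). *Ece1*, the enzyme that cleaves endothelins to their active form, fell by 0.81. Among other RGS proteins *Rgs3* fell from 107 and 116 to 42.5 CPM, and *Rgs4* had 163, 150 and 3 UMIs, 6.44% of the control level (exact 95% interval 1.32 to 19.0). Of 10 pericyte markers tested beside *Rgs5*, 3 fell (*Rgs4*, *Kcnj8* and *Notch3*) and *Cspg4* rose by 0.77. In male-typed cells *Rgs4* alone of the 3 passed, while *Rgs3*, *Edn3* and *Ece1* all did. Calls were lost with DESeq2 for *Ece1* (adjusted p = 0.0516), *Notch3* (0.209) and *Cspg4* (0.282), and with equal numbers of cells for *Ece1* (0.0708) and *Cspg4* (0.109).

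Retinoid genes moved in both directions. *Cyp26a1* and *Cyp26b1* encode enzymes that break down retinoic acid, and they moved in opposite directions. *Cyp26a1* stood at 335, 289 and 86.5 CPM, a difference of -1.85 ± 0.20 (SE, adjusted p = 0.00249). *Cyp26b1* stood at 5.28, 10.4 and 74.7 CPM, a rise of 3.22 ± 0.32 (SE, adjusted p = 0.00173). Both controls lay apart from the knockout for either gene. *Crabp2* fell by 1.12 and *Cyp1b1*, a glaucoma gene whose product can oxidize retinol, by 0.91, so that 1 of 13 tested rose and 3 fell. *Cyp1b1* did not pass with equal numbers of cells (adjusted p = 0.062) or in male-typed cells (-0.73, 0.0661). *Cyp26a1* and *Crabp2* fell more in TM7 than in the other groups (interaction -1.93 and -1.38, adjusted p = 0.00684 and 0.00279). Of 12 retinoid genes in that test these 2 were called lower and 2 higher, *Cyp26b1* and *Cyp1b1*. The fall of *Cyp1b1* was thus smaller in TM7 than the mean of that in the other groups.

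Secreted factors that act on vessels, nerves and melanocytes went both ways. Of 19 tested, 4 fell and 1 rose, and the median was -0.33. Below both controls lay 9 and above them 8, near the shares of all genes (42.2% and 41.3%). *Kitl*, the ligand of KIT on melanocytes and mast cells, was at 760, 746 and 432 CPM, and *Pgf*, a ligand of VEGF receptor 1, at 359, 361 and 153. The knockout lay below both controls, which were nearly equal, and the differences were -0.80 ± 0.16 (adjusted p = 0.0253) and -1.24 ± 0.17 (adjusted p = 0.00664, SE, edgeR). The semaphorins *Sema3c* and *Sema3d*, guidance factors, fell by 1.96 and 2.55. *Cxcl12*, low in control TM7, rose by 0.84 from 289 and 339 to 562 CPM, more than in TM6, TM8 and TM9 (by 0.81, adjusted p = 0.000279). With equal numbers of cells neither *Kitl* (adjusted p = 0.068) nor *Cxcl12* (0.057) passed. Of the angiopoietin pathway besides *Angpt1*, 3 of 6 genes could be tested and none passed; *Svep1* was at 35.2, 41.2 and 65.3 CPM (adjusted p = 0.0706) and rose by 1.42 in male-typed cells (adjusted p = 0.00824).

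IGF-binding proteins split as well. *Igfbp2* was at 45.0, 114 and 558 CPM, a rise of 2.80 ± 0.39 (SE, edgeR adjusted p = 0.00644, but 0.104 with DESeq2), with the controls themselves more than 2-fold apart. *Igfbp4*, the most abundant of those that fell, was at 5638, 5105 and 2674 CPM, a difference of -1.01. *Igfbp3* fell by 1.99 and *Igfbp6* by 0.90, and in male-typed cells *Igfbp3* was at -0.14 (adjusted p = 0.912). With equal numbers of cells *Igfbp2* (adjusted p = 0.0597) and *Igfbp6* (0.0825) did not pass. In all 1 of 9 tested rose and 3 fell. Of 12 genes of hyaluronan synthesis and binding, *Has1* alone changed, from 452 and 676 to 115 CPM (-2.30 ± 0.27, SE, adjusted p = 0.0035), below both controls.

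Matrix genes showed mixed changes. Among 20 elastic fibre and lysyl oxidase genes 5 rose and 1 fell, with a median of 0.08. *Eln*, elastin itself, stood at 34.9, 29.9 and 89.7 CPM, and *Ltbp1*, which holds latent TGF-beta in the matrix, at 17.8, 22.5 and 90.4. Both were clearly above the controls, by 1.47 and 2.15. *Ltbp2* rose by 1.22, *Loxl2*, which cross-links collagen and elastin, by 1.19 and *Efemp1* by 1.04, while *Mfap5* fell by 0.83. In male-typed cells *Loxl2* and *Ltbp2* were called and *Efemp1* turned to -0.37 (adjusted p = 0.609), while *Eln* (0.85, 0.312) and *Ltbp1* (1.28, 0.119) did not pass. *Loxl2* did not pass with DESeq2 (adjusted p = 0.155) or with equal numbers of cells (0.0652). Of 16 collagen chains *Col6a3*, *Col15a1* and *Col18a1* rose by 1.32 to 1.52 and *Col11a1* fell by 0.94. Male-typed cells gave 4 chains called higher (*Col1a1*, *Col1a2*, *Col3a1* and *Col6a3*) and none lower. In male-typed cells *Col15a1* (0.12, adjusted p = 0.969), *Col18a1* (0.82, 0.59) and *Col11a1* (-0.83, 0.113) did not pass, nor did *Col11a1* with DESeq2 (0.0567) or with equal numbers of cells (0.0666), nor *Col18a1* with the latter (0.0766). *Dcn*, the proteoglycan decorin, rose by 0.70 from 8821 and 9882 to 15202 CPM, with an adjusted p of 0.0888 with equal numbers of cells.

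Among regulators, *Sfrp1*, a secreted Wnt antagonist, fell from 129 and 106 to 32.2 CPM (-1.86), the Wnt receptor *Fzd4* by 1.02 and the growth factor *Bmp4* by 1.37, while *Wif1*, another antagonist, rose with 11, 25 and 27 UMIs, so that 1 of 17 rose and 3 fell. *Wif1* and *Bmp4* did not pass in male-typed cells (adjusted p = 0.54 and 0.149), *Fzd4* did not with DESeq2 (0.112), and *Wif1* did not with equal numbers of cells (0.0574). Of 14 anterior segment transcription factors 2 rose, *Nr2f1* by 1.51 and *Prrx1* by 0.91, and none fell. *Nr2f1* did not pass in male-typed cells (adjusted p = 0.0753), and *Prrx1* did not with DESeq2 (0.0773) or equal numbers of cells (0.141). Of 29 glaucoma genes 4 rose (*Dcn*, *Loxl2*, *Efemp1* and *Ltbp1*) and 2 fell (*Myoc* and *Cyp1b1*). Adventitial fibroblast markers gave 2 that fell (*Cd34* by 1.97 and *Mfap5*) of 7, and in male-typed cells *Pi16* and *Ly6a* were called lower too. The smooth muscle genes *Acta2* and *Tagln* rose by 1.18 and 1.68, though neither passed in male-typed cells and *Tagln*, at 171 and 345 CPM in the controls, did not with DESeq2 either (adjusted p = 0.3).

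Of 5 surface epithelium markers 2 rose. *Krt5*, a keratin of basal epithelium, was at 9.80, 5.85 and 42.5 CPM (39, 27 and 54 UMIs), a difference of 2.45 ± 0.34 (SE, adjusted p = 0.00582). *Krt15*, a keratin of the limbal epithelium, was at 5.28, 2.38 and 32.2 CPM (3.09 ± 0.44, SE, adjusted p = 0.00698). The knockout was above both controls for either, but in male-typed cells neither passed (adjusted p = 0.281 and 0.227), and DESeq2 called neither. No member of the melanocyte, pigment epithelium, Schwann cell, immune, endothelial, photoreceptor, keratocyte or corneal endothelium lists passed among the 2 to 5 of each that could be tested. In male-typed cells, however, the corneal endothelium markers *Atp1b1* (2.09, adjusted p = 0.0272) and *Col8a2* (1.06, 0.0164) and the keratocyte marker *Lum* (1.08, 0.00034) rose and the melanocyte marker *Dct* fell (-3.20, 0.02). The 4 corneal endothelium markers tested had a median of 0.92, and 1.58 in male-typed cells. Summed levels of the surface epithelium list in TM7 were 0.66, 0.50 and 1.54 UMIs per 10,000, and their part in these 2 genes was not tested.

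The last comparison asked whether the genotype difference of TM7 departed from that of TM6, TM8 and TM9, with 12 sums of the same 3 libraries in one fit. The sums of the single knockout pool are fitted exactly, so the 3 residual degrees of freedom come from the 2 controls alone. The p-values and SEs of this test therefore hold no variation between knockout pools. Of 10308 genes 234 or 2.27% were called, 130 with a higher (1.26%) and 104 with a lower difference in TM7 (1.01%), and 92 and 49 by at least 2-fold. The balance depended on the setting, with 43 higher and 90 lower against TM8 alone (79 of the 234 shared), 161 and 240 without a filter on low counts, and 41 and 53 with DESeq2. *Rsad2* rose in TM7 by 2.15, beside -1.32, 1.25 and -0.18 in TM6, TM8 and TM9, an interaction of 2.24 ± 0.26 (SE, adjusted p = 1.25e-05) that did not pass against TM8 alone (0.89, adjusted p = 0.122). Of 31 interferon-stimulated genes 6 were called higher in TM7 by this test (*Ifit3*, *Ifit3b*, *Rsad2*, *Oasl2*, *Bst2* and *Gbp3*) and none lower, and reads of *Ifit3* and *Ifit3b* may be divided between these copies. *Cthrc1*, a secreted collagen triple helix protein, was at 22.4, 31.4 and 123 CPM in TM7 and differed by -2.02, -0.49 and -3.01 in TM6, TM8 and TM9, an interaction of 4.05 ± 0.39 (SE, adjusted p = 8.73e-07). *Fam46a* rose by 1.80 in TM7, with differences from -0.02 to 0.59 in the other groups.

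*Fst*, the activin antagonist follistatin, differed in another way. It was at 259, 294 and 233 CPM in TM7, where the difference of -0.25 did not pass (adjusted p = 0.46), whereas it was -2.03, -1.03 and -1.52 in TM6, TM8 and TM9. The TM7 difference was the smallest in size of the 4, with an interaction of 1.29 ± 0.17 (SE, adjusted p = 4.95e-05), which did not pass against TM8 alone (0.78, adjusted p = 0.0535).

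In the other direction, *Socs3*, *Dusp1* and *Tgm2* fell in TM7 beyond the rest. *Tgm2*, a cross-linking transglutaminase, was at 231, 214 and 72.4 CPM in TM7 (-1.62) and between -0.13 and 0.35 in TM6, TM8 and TM9. *Dusp1* differed by -1.05 in TM7 and by -0.59, 0.80 and 0.96 in the others. *S100a6*, a leading TM7 gene, was at 3376, 3543 and 2675 CPM, a difference of -0.37 that did not pass, while it was 0.79 to 1.30 in the other groups. *Ccl2*, a monocyte chemokine, differed by -0.26 in TM7 (adjusted p = 0.394) and by -0.79, 1.86 and 1.26 in the others. Of 18 immediate early genes 5 were called lower by the interaction (*Junb*, *Ier3*, *Dusp1*, *Socs3* and *Klf4*) and 3 higher (*Jun*, *Nr4a1* and *Nr4a2*), and *Has1* and *Edn3* were also lower (-1.87 and -0.71, adjusted p = 2.74e-05 and 0.0161). Elastic fibre genes were called higher 7 times among 20 and lower in none. Of the 7, *Efemp1*, *Ltbp1* and *Ltbp2* also rose in TM7 itself, *Mfap5* fell there, and *Mfap4*, *Fbln1* and *Ltbp4* were not called. The list's summed level was 42.8, 44.5 and 41.8 in TM7. It was 37.2, 35.4 and 24.7 in TM6, 38.0, 40.7 and 27.8 in TM8, and 44.1, 40.9 and 23.3 in TM9. A higher call by the interaction thus did not require a rise in TM7.

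**Figure D5:**
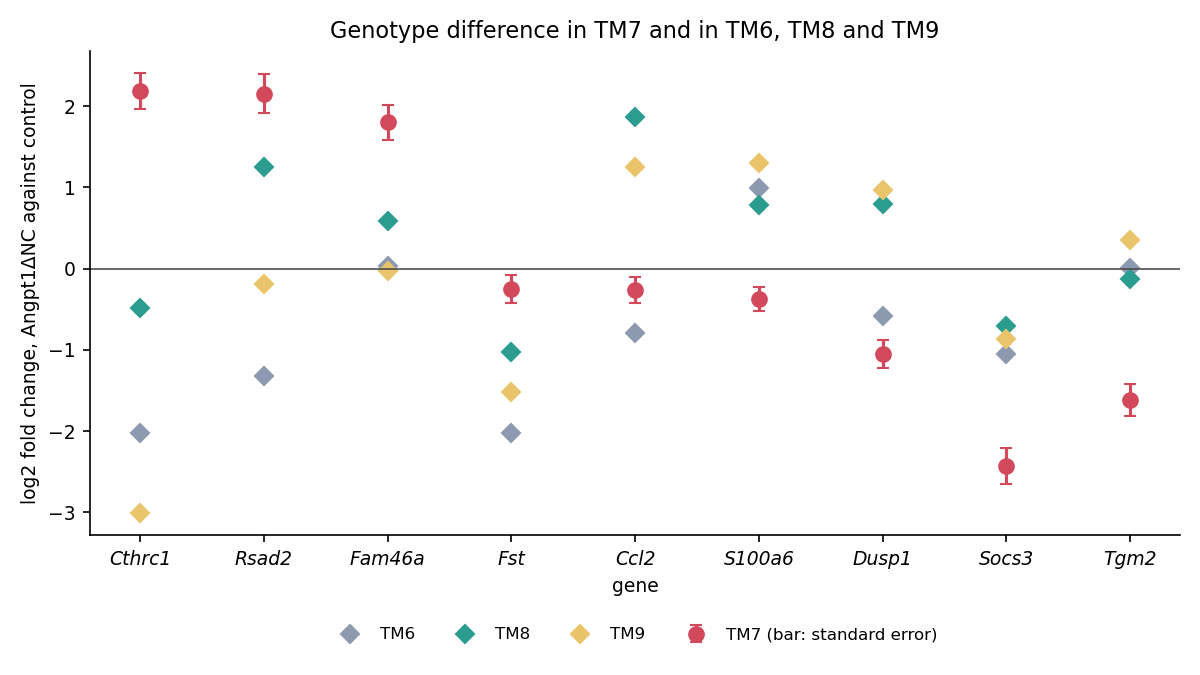
Log2 fold change between genotypes of 9 genes named because their difference in TM7 departed from that in TM6, TM8 and TM9, with the standard error for TM7. *Cthrc1*, *Rsad2* and *Fam46a* lie high in TM7, at 2.19, 2.15 and 1.80, and *Tgm2* and *Socs3* low, at -1.62 and -2.43.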

How the data were processed

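Dissociated cells were profiled on the 10x Chromium platform in 3 pooled libraries. The authors deposited, without normalization, UMI counts per gene and called cell, made against mm10; the submitters' processing notes name Cell Ranger 2.1.1 and Seurat 3.1.3, and the headers of the deposited count matrices name Cell Ranger 3.0.2. The authors kept cells with at least 200 genes, at least 1000 UMIs and at most 10% mitochondrial UMIs, removed doublets, and deposited their cluster labels in tables of integrated values; only labels and barcodes of those tables were used, and all 26008 barcodes were matched. *Angpt1*, sex-linked genes and genes found in a single sample had been left out of the clustering.

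Mean levels give UMIs per 10,000 of each cell's total, and ratios have 0.1 added. Counts were summed over the cells of each group and library and tested with edgeR 4.0.16 in R 4.3.3 (TMM, filterByExpr, quasi-likelihood F-test, two-sided, Benjamini-Hochberg over all genes tested), with 2 control libraries against 1. DESeq2 1.42.0, RLE factors, no filter, equal numbers of cells (174 each), male-typed cells (a Y-linked and no *Xist* UMI) and leaving out each control were alternatives; the list counts in male-typed cells were added after the data had been seen. Intervals are exact at 95% (scipy 1.17.1, Python 3.11.15, numpy 2.4.6, pandas 2.3.3) and cover counting error only. Figures were made with matplotlib 3.10.9, and gene positions come from GENCODE M21. Where the labels give no replicate numbers, replicates were numbered in accession order.

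Members and gene lists were chosen with earlier results of these data known. Genes named are the 20 highest and 10 lowest in TM7 (description), in each direction the 10 (genotype) or 5 (interaction) with the smallest adjusted p under 0.05, an absolute log2 value of at least 1 and the knockout outside both controls, and list members. A few genes that this rule names are not reported here. Y-linked genes, *Xist* and *Angpt1* stand apart, and *Rgs5* and *Chil1*, which mark the cluster, were left out of the list counts.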

Additional observations from a re-analysis of the deposited data

Results flagged for a closer look

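In all 9 genes were singled out because their genotype difference in TM7 departed from the mean of that in TM6, TM8 and TM9 by the test of the difference itself. The departures, on the log2 scale, were 4.05 for *Cthrc1*, 2.24 for *Rsad2*, 1.62 for *Fam46a* and 1.29 for *Fst*, and in the other direction -1.68 for *Tgm2*, -1.53 for *Socs3*, -1.43 for *Dusp1*, -1.40 for *S100a6* and -1.03 for *Ccl2*. With TM8 alone as the reference 7 of the 9 still passed. With groups of 2 libraries and 1, no library could be examined as an outlier within its group.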

How the results depend on the processing

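The count of 545 genotype calls became 854 with RLE size factors, 1351 without a filter on low counts, 229 with DESeq2, 316 with equal numbers of cells and 509 in male-typed cells. The 226 DESeq2 calls and 298 equal-cell calls shared with the 545 kept their direction. The share of calls that were higher in the knockout was 38.9% with DESeq2, 40.1% in male-typed cells and 41.3% without a filter. The 234 interaction calls became 401 without a filter, 94 with DESeq2 and 133 with TM8 alone as reference, and 237 with RLE factors. Of 80 named or list genes called, 12 lost the threshold with DESeq2. The other 68 include genes such as *Ccl5* and *Sct*, for which DESeq2 gave no adjusted p and only the direction was compared. With equal cells 63 stayed past the threshold, and 58 in male-typed cells, where *Efemp1* reversed to -0.37. All 80 kept their direction without either control, but this is fixed in advance where the knockout lies outside both controls, as the naming rule required. The cause of these changes was not tested. *Angpt1* in TM7 against the other uveal groups was 0.54 without the replicate block (adjusted p = 0.0099, edgeR) and 0.42 to 0.66 without either control. No paired analysis was possible because replicate numbers of controls and knockout do not pair animals and 1 knockout library exists. The TM7 share was 35.1% of the control mean, 34.96 to 35.32% without either control, and 58.1% within TM6 to TM9. *Angpt1* in TM7 between genotypes ranged from -5.93 to -5.76 without either control. Leaving out a control leaves 1 library against 1, so no count of calls was computed then. The lone knockout pool, its sex and its 174 cells limit every genotype value.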
